A study of Danio rerio with 9 samples.

Results

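The transcripts of rhombomere 4 (r4) in zebrafish embryos depleted of Hoxb1a were compared with those of r4 in normal embryos. Arrays were assigned by their titles, which gave 6 of the 9 arrays in the series: 3 of normal r4 and 3 of Hoxb1a-deficient r4. The other 3 arrays held normal rhombomere 2 (r2). All embryos came from an islet-1 GFP transgenic strain and were 19 to 20 hours post fertilization. Normal r4 and normal r2 came from unmanipulated embryos, with no control injection recorded, and Hoxb1a-deficient r4 from embryos that had received a Hoxb1a morpholino. Each sample was a thick slice of hindbrain centred on 1 rhombomere, pooled from 8 to 10 embryos and dissociated with trypsin, so that it also held tissue around the neural tube. The labels do not say whether the morpholino blocked translation or splicing. The replicate numbers stand for 3 separate experiments, so each experiment gave 1 pair of r4 arrays, 1 normal and 1 deficient, called pairs 1, 2 and 3 here. The r2 arrays are replicates 2, 3a and 3b, and their values are given in that order. They come from experiments 2 and 3 only, and 3a and 3b share experiment 3. The 3 r2 values of a probe therefore do not stand for 3 separate experiments. The tests below still enter 3a and 3b as separate arrays. Every SE, p-value and share of called probes in a comparison with r2 may therefore overstate the precision. The tissue field of 1 deficient array (replicate 3) names rhombomere 4 without the deficiency, while its title and treatment text give the morpholino, and the title was followed.

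Hoxb1a is the Hox transcription factor that gives r4 its identity, acting with cofactors of the Pbx and Meis families. Cells of r4 produce the facial branchiomotor neurons, which in zebrafish are born in r4 and then migrate backward along the neural tube into the following rhombomeres. That migration depends on planar cell polarity proteins, and without Hoxb1 function r4 takes on features of r2 and the facial neurons stay where they were born.

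Values are spot intensities relative to the median of their array and are given as multiples of that median. A probe near or below 1 is one of the dim probes, whose signal cannot be told from background here. A change is the log2 difference, Hoxb1a-deficient minus normal, within a pair, and 1 on this scale is a doubling. Upper quartiles of the r4 arrays were 6.87 and 6.15 in pair 1 and between 3.65 and 4.19 in the other pairs. Changes were tested with limma over 16227 probes, with the experiment as a block and Benjamini-Hochberg adjustment over all probes. The 5907 probes with 1 gene symbol gave names to 5355 genes. Precision is limited by the number of arrays. Nothing in the labels says how far embryos of 1 experiment were related, so p-values refer to these pooled samples only. They measure the spread left after the level of each experiment is removed. That spread includes the r2 arrays, and limma draws it toward a value shared by all probes.

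The targeted gene was read first. The hoxb1a probe measured 3.02, 2.42 and 1.88 in normal r4 of pairs 1, 2 and 3, and 3.17, 1.52 and 1.51 in Hoxb1a-deficient r4. The groups overlapped, because the highest value of all came from the deficient array of pair 1, and the within-pair changes of 0.07, -0.67 and -0.31 averaged -0.30 ± 0.15 (SE, limma adjusted p = 0.887). A morpholino acts on the RNA after transcription, so this probe does not check the knockdown. It does bear on the tissue label: hoxb1a was 0.774 or lower on all 3 arrays of normal r2, and higher in Hoxb1a-deficient r4 than in r2 by 1.296 ± 0.16 on the log2 scale (limma adjusted p = 0.00425), a difference that the dim r2 values understate.

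Across the 3 pairs, 2 probes fell and 0 rose in Hoxb1a-deficient r4 at an adjusted p under 0.05, which is 0.0123% and 0.0% of the probes tested. At an unadjusted p under 0.05 there were 932 probes, or 5.74%. Without the block there were 0 calls by limma and 82 probes at an unadjusted p under 0.05. No named gene passed the test. The named genes are therefore given as measured values within pairs. Those with the same sign in every pair included prickle1b, slc1a2b, fabp7a and gfap, with lower values in Hoxb1a-deficient r4, and cxcl12b and timp2b, with higher ones. In samples of whole tissue, fewer cells of a type and less RNA per cell cannot be told apart.

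The gene prickle1b encodes a cytoplasmic planar polarity protein on which the backward journey of facial neurons depends. It measured 21.3, 13.7 and 21.1 in normal r4 and 9.61, 8.72 and 9.30 in Hoxb1a-deficient r4. All 3 deficient arrays lay below all 3 normal arrays, and they lay close together, with a standard deviation of 0.450 against 4.34 in normal r4 (n = 3 each). The mean change was -0.99 ± 0.17 (SE, limma adjusted p = 0.274), and it did not pass in any of the 21 other settings tried, where the lowest adjusted p was 0.0642. In normal r2 prickle1b measured 6.24, 10.1 and 6.72. Normal r2 was below normal r4 by 1.28 on the log2 scale (change -1.28 ± 0.19, limma adjusted p = 0.0107), and Hoxb1a-deficient r4 differed from r2 by 0.29 ± 0.19 (adjusted p = 0.523). Both comparisons with the normal r4 arrays share those arrays. In the comparison of normal r2 with normal r4, 0.764% of probes were called higher and 0.937% lower, and in that of Hoxb1a-deficient r4 with normal r2, 0.875% and 1.34%.

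No other polarity gene was past 1.5-fold in every pair. Of 14 measured genes of planar polarity and neuron migration, 0 passed the test, 0 were higher in all 3 pairs and 3 were lower in all 3 pairs, beside 9.93% and 13.8% of all named genes. The same shares stand beside every later count of list genes higher or lower in all pairs. The core polarity membrane protein gene vangl2, which works together with Prickle, had changes of -0.08, -0.05 and -0.05. It read only 1.15 to 1.64 on the r4 arrays, near the median, where a change is hard to see. The Frizzled receptor gene fzd7b, at 1.43 to 2.49, had changes of -0.18, -0.07 and -0.14. The other core genes turned sign between pairs, as with the atypical cadherin gene celsr1a at -0.64, 0.04 and -0.27, and the receptor gene fzd3a at -0.04, 0.13 and -0.63. The list's median change was -0.06, 0.09 and -0.34 in pairs 1, 2 and 3, and that of all probes 0.06, 0.00 and -0.09.

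**Figure D1:**
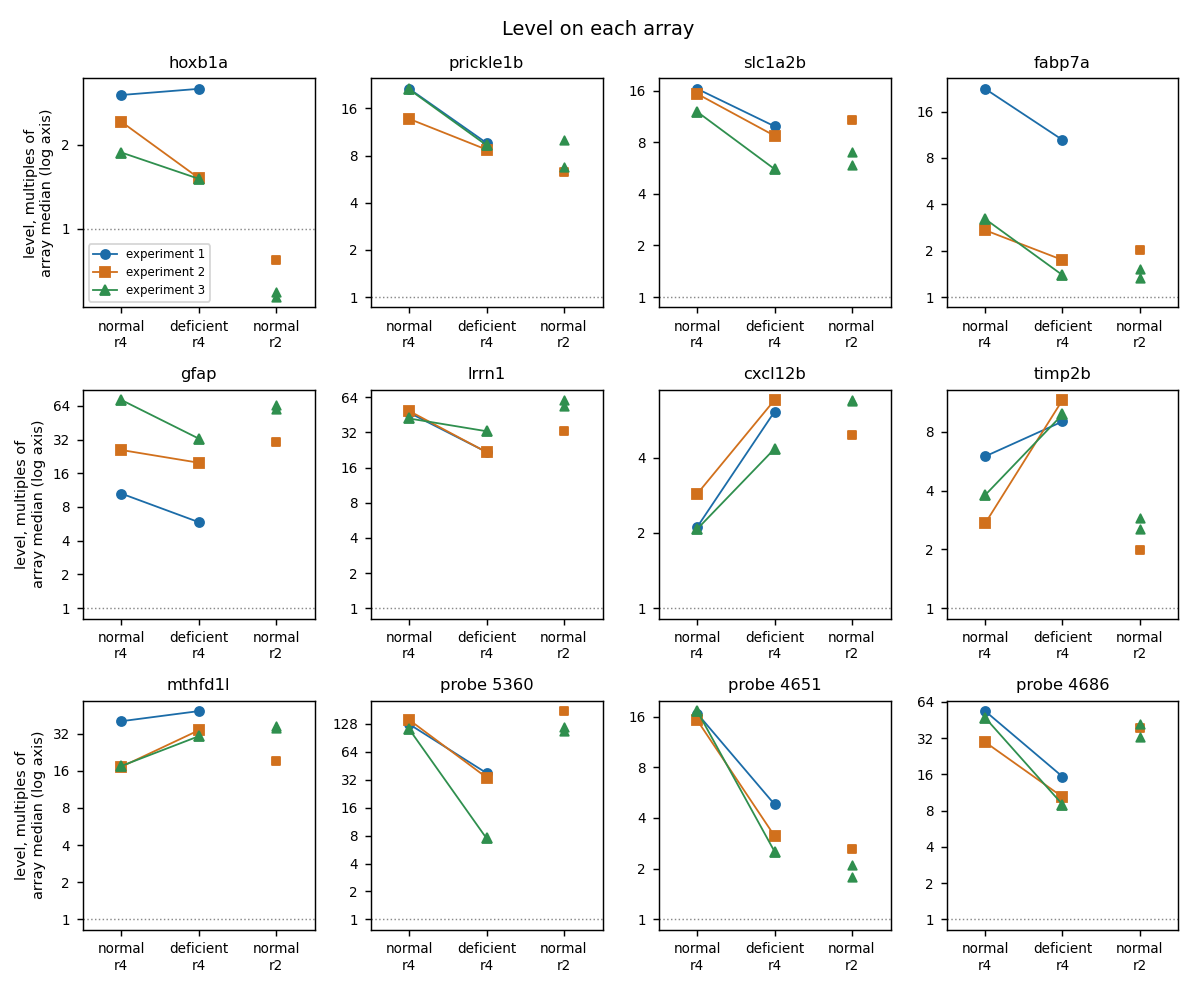
Level of 12 probes on each array (vertical axis: multiples of the array median, log scale; the dotted line is the median). Lines join the normal and Hoxb1a-deficient r4 arrays of 1 experiment, and unjoined points are the 3 normal r2 arrays; for prickle1b all 3 lines end between 8.72 and 9.61, while fabp7a and gfap start from levels that differ between experiments and slope downward in each.

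The chemokine gene cxcl12b encodes a secreted ligand that guides migrating cells and axons through the receptors Cxcr4 and Ackr3. It measured 2.11, 2.87 and 2.07 in normal r4 and 6.103, 6.79 and 4.34 in Hoxb1a-deficient r4. The groups did not overlap, and the changes of 1.53, 1.25 and 1.06 were alike in size. The mean change was 1.28 ± 0.21 (SE, limma adjusted p = 0.231). It passed in 6 of 21 other settings, among them the fit to the 6 r4 arrays alone (adjusted p = 0.0137). Over all settings its adjusted p ran from 0.0137 to 1.00. Normal r2 measured 4.92, 6.74 and 6.79, higher than normal r4 by 1.41 ± 0.23 (limma adjusted p = 0.0182), and Hoxb1a-deficient r4 differed from r2 by -0.13 ± 0.23 (adjusted p = 0.864).

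The receptor gene cxcr4b measured 7.36, 3.75 and 4.00 in normal r4 and 7.31, 3.18 and 2.44 in Hoxb1a-deficient r4 (mean change -0.32 ± 0.17, limma adjusted p = 0.890). The groups overlapped and the difference lay mostly in pair 3. The second receptor gene cxcr4a read 0.686 or lower on all 6 r4 arrays, too dim to show a change. The chemokine gene cxcl14 went from -0.19 in pair 1 to 1.16 in pair 2 and -0.66 in pair 3. Of the 4 measured chemokine genes 0 passed the test and 1, cxcl12b, was past 1.5-fold in every pair.

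The metalloproteinase inhibitor gene timp2b measured 5.996, 2.72 and 3.799 in normal r4 and 9.05, 11.7 and 9.83 in Hoxb1a-deficient r4. The groups did not overlap, but pair 1 changed by 0.59, just past 1.5-fold, against 2.10 and 1.37 in pairs 2 and 3. The mean was 1.35 ± 0.24 (SE, limma adjusted p = 0.277). Normal r2 measured 1.99, 2.55 and 2.899. Unlike cxcl12b, timp2b was higher in Hoxb1a-deficient r4 than in r2, by 1.98 ± 0.26 (limma adjusted p = 0.00497), and r2 differed from normal r4 by -0.62 ± 0.26 (adjusted p = 0.400).

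Among the measured metalloproteinase genes, mmp2, which encodes gelatinase A, a protease of the extracellular matrix, had changes of 0.13, 0.99 and 0.78. The sheddase gene adam10a had changes of -0.83, -0.30 and -0.75, and the sheddase gene adam17a -0.43, -0.26 and -0.33. The membrane metalloproteinase genes mmp14a (-1.18, -0.09 and 0.05) and mmp14b (-0.51, 0.00 and 0.25) did not keep 1 sign. The inhibitor gene timp2a, the paralog of timp2b, read 0.857 or lower on all 6 r4 arrays. Of the 9 measured genes of this list 0 passed the test, 2 were higher and 3 lower in all pairs.

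Radial glia are the elongated progenitor cells of the neural tube. Of 8 measured radial glia genes 0 passed the test. By at least 1.2-fold in all 3 pairs 3 were lower and 0 were higher, beside 1.46% and 0.43% of all named genes. These were slc1a2b, a glial glutamate transporter, fabp7a, a fatty acid binding protein of radial glia, and gfap, the glial intermediate filament. From the same values, these 3 had an unadjusted p under 0.05 by limma, which 4.07% of named genes reached in this direction. The list was chosen with earlier results of these data known, so its counts beside these shares are not a test.

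The transporter gene slc1a2b measured 16.4, 15.3 and 12.04 in normal r4 and 9.91, 8.73 and 5.58 in Hoxb1a-deficient r4. The groups did not overlap, and the changes were -0.73, -0.81 and -1.11. The mean was -0.88 ± 0.14 (SE, limma adjusted p = 0.151). Normal r2 measured 10.7, 7.03 and 5.89, below all 3 normal r4 arrays (change -0.69 ± 0.14, limma adjusted p = 0.0541). Hoxb1a-deficient r4 differed from r2 by -0.19 ± 0.14 (adjusted p = 0.602).

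The fabp7a probe differed far more between experiments than within them. It measured 22.5, 2.72 and 3.21 in normal r4 and 10.5, 1.74 and 1.39 in Hoxb1a-deficient r4. Both arrays of pair 1 stood above the other 4 r4 arrays, so the groups overlapped although each deficient array was below its partner. The changes of -1.10, -0.64 and -1.21 averaged -0.98 ± 0.16 (limma adjusted p = 0.211), and the gene passed only in the setting without replicate 2 (adjusted p = 0.0418). Its adjusted p elsewhere reached 1.00. Normal r2 measured 2.03, 1.33 and 1.52, lower than normal r4 by a change of -0.87 ± 0.17 (limma adjusted p = 0.0421). Hoxb1a-deficient r4 differed from r2 by -0.11 ± 0.17 (adjusted p = 0.838).

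For gfap the order of the experiments was the reverse, with 10.5, 25.8 and 72.1 in normal r4 and 5.86, 19.9 and 32.6 in Hoxb1a-deficient r4. Each deficient array was again below its partner while the groups overlapped, with changes of -0.85, -0.38 and -1.14 and a mean of -0.79 ± 0.15 (limma adjusted p = 0.324). Normal r2 measured 30.6, 65.4 and 59.9 and differed from normal r4 by -0.001 ± 0.16 (limma adjusted p = 0.999). Hoxb1a-deficient r4 was below r2 by a change of -0.79 ± 0.16 (adjusted p = 0.0441). A second gfap probe read 0.804 or lower on all 6 r4 arrays and showed changes of only -0.15, -0.08 and -0.06.

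The other 5 radial glia genes gave little information, since most of their probes were dim or saturated. The intermediate filament gene vim read 0.814 or lower and the brain aromatase gene cyp19a1b 0.731 or lower on all 6 r4 arrays. The glutamine synthetase gene glulb was at the highest value of the scan on both arrays of pairs 1 and 3. In pair 2 it read 135 and 127, below the highest values of 186 and 177, and changed by only -0.09. The Notch target gene her4.1 was below the median on all 4 arrays of pairs 2 and 3, and in pair 1 it went from 1.83 to 2.05 (0.16). The connexin gene gja1b went from 3.18 to 1.46 in pair 1 (-1.12) and lay near the median in the other pairs, at 0.43 and 0.10. The medians of the list, dim and saturated members included, were -0.28, -0.20 and -0.09. The wider list of 33 neural progenitor genes had 3 higher and 4 lower in all pairs and 0 past 1.2-fold in all of them.

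Some neuronal genes were also lower in every pair. The gene lrrn1, which encodes a neuronal membrane protein with leucine-rich repeats, measured 47.2, 48.8 and 42.1 in normal r4 and 21.7, 21.7 and 32.8 in Hoxb1a-deficient r4. The groups did not overlap, and the change was -1.12 and -1.17 in pairs 1 and 2 but -0.36 in pair 3. The mean was -0.88 ± 0.20 (limma adjusted p = 0.520), and the gene passed without replicate 3 (adjusted p = 0.0431, range over the other settings up to 1.00). Normal r2 measured 32.9, 60.7 and 53.8.

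The neurofilament gene nefma measured 2.19, 1.49 and 2.32 in normal r4 and 1.41, 0.979 and 1.45 in Hoxb1a-deficient r4. Its changes of -0.63, -0.61 and -0.68 were almost equal in the 3 pairs and the groups did not overlap, but it lay near the array median. The mean was -0.64 ± 0.19 (SE, limma adjusted p = 0.771), where the SE also draws on the r2 arrays and on all probes. The synaptic membrane fusion gene snap25b, at -1.41, -0.58 and -0.50, took most of its mean of -0.83 from pair 1. The pan-neuronal RNA-binding protein gene elavl3 had changes of -0.27, -0.11 and -0.87 on its brightest probe. Dimmer elavl3 probes did not keep 1 sign. Probe 18018, at 0.932 to 1.27 on the r4 arrays, changed by 0.15, 0.15 and -0.06. Probe 10821, at 0.785 or lower, changed by -0.01, -0.10 and 0.01. Of 26 measured neurogenesis genes 1 was higher and 8 were lower in all pairs, beside 9.93% and 13.8% of all named genes. None was past 1.2-fold in all of them, and whether the count of lower genes exceeds that share was not tested. Of 20 neuron structure genes 0 passed the test, 4 were higher and 5 lower in all pairs, and the median of their mean changes was 0.03.

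Genes of the facial motor neurons themselves had no common direction. The LIM homeobox gene isl1a, whose regulatory sequence drives the GFP of this strain, measured 8.73, 5.65 and 5.47 in normal r4 and 12.1, 7.90 and 4.201 in Hoxb1a-deficient r4. It was higher in pairs 1 and 2 (0.47 and 0.48) and lower in pair 3 (-0.38). The vesicular acetylcholine transporter gene slc18a3a measured 3.34, 3.10 and 4.43 in normal r4 and 2.51, 2.84 and 2.58 in Hoxb1a-deficient r4. The groups did not overlap, but the changes of -0.41, -0.12 and -0.78 were small and uneven (mean -0.44 ± 0.17, limma adjusted p = 0.853). The facial motor neuron transcription factor gene tbx20 read 0.720 or lower on all 6 r4 arrays. The gene ret, a receptor for glial-derived growth factors, changed by -0.22, 0.03 and 0.15 and lay near the median in pairs 2 and 3. Of 15 measured genes 0 passed the test, 0 were higher and 2 lower in all pairs. The GATA factor genes gata2a (mean 0.05 ± 0.15) and gata3 (-0.16 ± 0.15), which lie downstream of Hoxb1 in mouse r4, did not pass either. On 4 of the 6 r4 arrays gata2a was below the median.

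Hox and segment genes were then read as the identity of the tissue. Of 46 measured Hox genes 0 passed the test, and 9 were higher and 6 lower in all pairs, beside 9.93% and 13.8% of all named genes. In either direction 0 were past 1.2-fold in all pairs. Only 9 of the 46 lay above the array median on 3 or more r4 arrays. The rhombomere 2 Hox gene hoxa2b, also active in more posterior rhombomeres, measured 30.2, 19.9 and 12.2 in normal r4 and 26.4, 13.3 and 6.38 in Hoxb1a-deficient r4. It was lower in each pair by an unequal amount, at -0.19, -0.58 and -0.94, and the groups overlapped (mean -0.57 ± 0.16, limma adjusted p = 0.730). In normal r2 hoxa2b measured 12.8, 5.86 and 7.22, a change from normal r4 of -0.69 ± 0.17 (limma adjusted p = 0.100). Hoxb1a-deficient r4 differed from r2 by 0.12 ± 0.17 (adjusted p = 0.827). The Hoxb1 target gene hoxb2a measured 2.62, 1.90 and 1.48 in normal r4 and 3.28, 1.37 and 1.13 in Hoxb1a-deficient r4. Its changes of 0.33, -0.46 and -0.39 did not keep 1 sign (mean -0.18 ± 0.20, limma adjusted p = 0.972).

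Markers of the neighbouring rhombomeres gave no shared direction. The rhombomere 3 and 5 gene egr2b measured 124, 152 and 112 in normal r4 and 139, 153 and 113 in Hoxb1a-deficient r4. In pair 3 the normal array was at the highest value of its scan and the deficient array near its own of 114. The change of 0.02 in that pair therefore cannot show a difference. Both arrays of pair 1 also lay near their highest values of 128 and 147, which limits the change of 0.16 there. Only pair 2 lay clearly below the highest values, of 186 and 177, with a change of 0.01. The Eph receptor gene epha4a, of rhombomeres 3 and 5, changed by -0.18, -0.29 and -0.96, and the posterior gene hoxa3a by -0.01, 0.45 and 0.38. The posterior gene hoxb3a changed sign between pairs, from 34.9 to 22.6 in pair 1, from 6.76 to 11.8 in pair 2 and from 7.29 to 2.69 in pair 3. Both hoxa3a and hoxb3a read 0.752 or lower on the r2 arrays and were higher in Hoxb1a-deficient r4 than in r2, by 2.62 ± 0.16 (limma adjusted p = 8.89e-05) and 2.91 ± 0.37 (adjusted p = 0.00463), differences that the dim r2 values understate.

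Among 13 measured Hox cofactor genes 0 passed the test, 0 were higher and 2 were lower in all pairs. These were pbx2, with levels of 4.66, 3.82 and 4.77 against 3.08, 3.61 and 3.84 (changes of -0.59, -0.08 and -0.31), and meis1a, with -0.17, -0.32 and -0.06. The main hindbrain cofactor gene pbx4, which is required for Hoxb1a function in zebrafish, changed by -0.29, 0.01 and -0.36. The median of the list was -0.01, 0.00 and -0.31 in the 3 pairs.

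A count over all probes with no test asked which ones changed by at least 1.5-fold the same way in each pair. There were 8 higher probes (0.0493% of the 16227) and 20 lower ones (0.123%). At 2-fold there were 4 (0.0247%) and 5 (0.0308%). Groups did not overlap for 7 of the 8 and 16 of the 20, beside 0.604% and 1.47% of all probes. The 28 were chosen by their differences on these same arrays, which favours groups that stand apart, so this is not separate evidence. All 28 lay above the array median on at least 3 of the 6 r4 arrays, probe 13689 on the deficient arrays only. Only 2 of the higher and 5 of the lower probes had a gene symbol. The named ones were cxcl12b, timp2b, prickle1b, slc1a2b, fabp7a and nefma, and tnrc6c1, a scaffold of microRNA silencing. The last measured 5.59, 5.27 and 4.78 in normal r4 and 3.61, 3.32 and 2.88 in Hoxb1a-deficient r4, with no overlap (mean change -0.67 ± 0.18, limma adjusted p = 0.685). Just inside the threshold in their weakest pair were timp2b (0.59) and probe 11870 (-0.59), and just outside it were uts1 (0.51) and snap25b (-0.50).

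**Figure D2:**
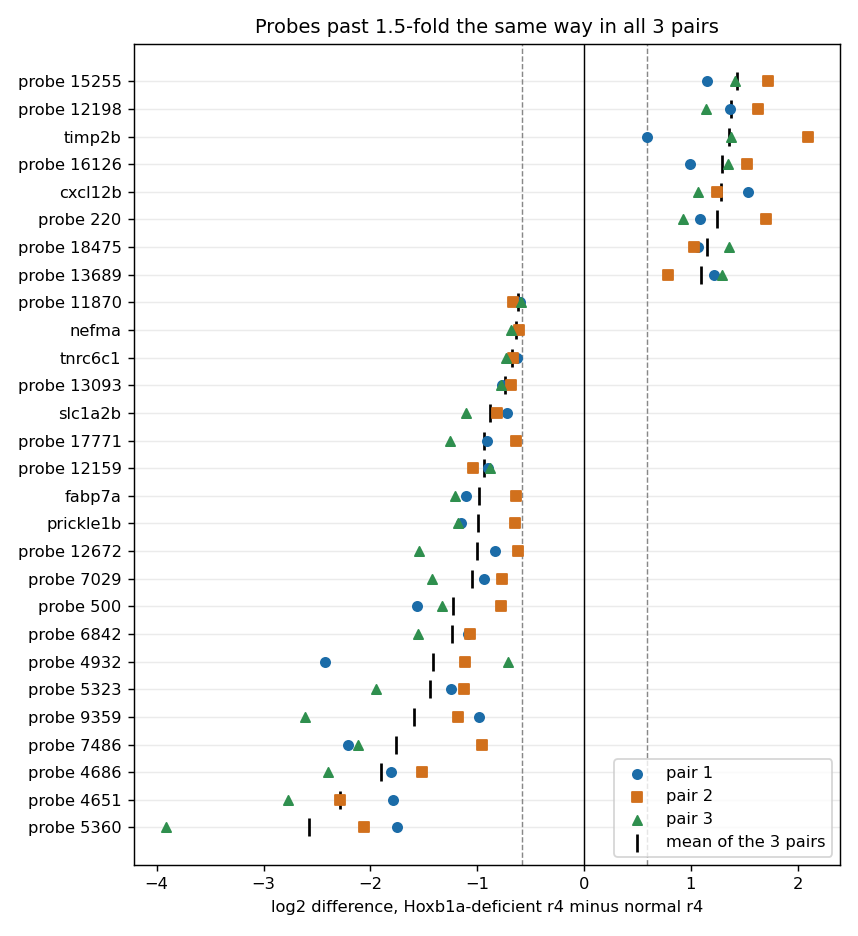
Within-pair log2 difference, Hoxb1a-deficient minus normal r4, for the 28 probes past 1.5-fold (dashed lines) the same way in all 3 pairs. Circles, squares and triangles are pairs 1, 2 and 3, black ticks their means; the 8 higher probes have means of 1.098 to 1.43 and the 20 lower ones of -0.62 to -2.57.

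The strongest changes belonged to probes that no annotation used here names. Probe 4651 measured 16.7, 15.2 and 17.3 in normal r4 and 4.82, 3.13 and 2.53 in Hoxb1a-deficient r4. It fell by 2.28 on the log2 scale (change -2.28 ± 0.19, limma adjusted p = 0.0102). All 3 deficient arrays lay far below the normal ones, which had a standard deviation of 1.05 (n = 3). Normal r2 measured 2.60, 2.09 and 1.78, below normal r4 by a change of -2.77 ± 0.20 (adjusted p = 0.000206), and Hoxb1a-deficient r4 differed from r2 by 0.49 ± 0.20 (adjusted p = 0.291). The call of probe 4651 held in 15 of 21 other settings and was lost without the block (adjusted p = 0.0818), with a pseudocount of 1 or 16, and without experiment 1 or either of its arrays. The settings without experiment 1 or either of its arrays are the same fit, since that experiment has no r2 array.

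Probe 4686 measured 53.5, 29.6 and 47.1 in normal r4 and 15.3, 10.4 and 8.98 in Hoxb1a-deficient r4. It fell by 1.90 (change -1.90 ± 0.18, limma adjusted p = 0.0193), with no overlap. In contrast to probe 4651 it was high in normal r2, at 39.0, 42.2 and 32.9, and lower in Hoxb1a-deficient r4 than in r2 by a change of -1.93 ± 0.20 (adjusted p = 0.00145). Its call held in 13 of 21 other settings. It was lost in the settings that ended the call of probe 4651 (adjusted p = 0.385 without the block) and also without either array of experiment 3's r4 pair.

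The largest mean change of all 28 was that of probe 5360. It measured 127, 141 and 112 in normal r4, where the third array was at its highest value, and 37.8, 33.8 and 7.45 in Hoxb1a-deficient r4. The changes were -1.75, -2.06 and at least -3.91 in size, and the mean of -2.57 ± 0.35 had a limma adjusted p of 0.1004. The normal array of pair 1 also lay near its highest value of 128, which limits the change of -1.75 there. Normal r2 read 176, 107 and 119, the last and the middle one at the highest values of their scans, and Hoxb1a-deficient r4 was below r2 by a change of -3.01 ± 0.38 (adjusted p = 0.00425), whose size these ceilings understate.

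Other unnamed probes divided in the same manner. Probe 7486 measured 8.43, 3.03 and 4.60 in normal r4, 1.83, 1.57 and 1.06 in Hoxb1a-deficient r4, and 3.26, 4.44 and 4.70 in r2. Probe 5323 measured 39.7, 10.3 and 19.3 in normal r4, 16.7, 4.72 and 4.998 in Hoxb1a-deficient r4, and 13.1, 26.3 and 24.6 in r2. Probe 6842 measured 9.07, 5.70 and 5.32 in normal r4 and 4.28, 2.72 and 1.81 in Hoxb1a-deficient r4, and it lay at 1.35, 0.720 and 1.16 in r2. The first and second were lower in Hoxb1a-deficient r4 than in r2 (changes of -1.74 ± 0.25 and -1.91 ± 0.19, limma adjusted p = 0.00835 and 0.00142), and the third was higher than in r2 (1.06 ± 0.20, adjusted p = 0.0321). Against normal r4 their adjusted p was 0.0886, 0.0854 and 0.151.

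Of the higher unnamed probes, 16126 was the brightest. It measured 38.7, 39.9 and 37.7 in normal r4, a spread of 1.11 (SD, n = 3), and 77.0, 115 and 96.3 in Hoxb1a-deficient r4. Normal r2 was at 37.5, 51.5 and 50.1, so the deficient arrays stood above all 6 normal arrays of either rhombomere. The mean change was 1.29 ± 0.17 (limma adjusted p = 0.0854), with 8 of 21 other settings past the threshold. Probe 13689 went from 0.577, 0.757 and 0.536, all below the median, to 1.34, 1.304 and 1.31 (mean change 1.098 ± 0.13, adjusted p = 0.0751). Probe 15255 went from 1.93, 0.896 and 1.78 to 4.30, 2.96 and 4.75 (1.43 ± 0.21, adjusted p = 0.150). Both were lower in r2 than in Hoxb1a-deficient r4, by 1.12 ± 0.14 and 1.80 ± 0.22 (adjusted p = 0.00417 each). With r2 near or below the median, the difference of probe 15255 from r2 is understated. Probe 13689 lay near or below the median in all 3 groups, so the size of its differences is uncertain.

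Probes 12198 and 18475 were also higher in normal r2 than in normal r4. Probe 12198 measured 2.06, 1.009 and 1.13 in normal r4, 5.32, 3.12 and 2.48 in Hoxb1a-deficient r4 and 2.60, 4.22 and 2.38 in r2. Probe 18475 measured 2.62, 1.87 and 1.34 in normal r4, 5.49, 3.83 and 3.43 in Hoxb1a-deficient r4 and 4.09, 7.399 and 7.02 in r2. Their differences between Hoxb1a-deficient r4 and r2 were -0.08 ± 0.23 and -0.72 ± 0.24 (limma adjusted p = 0.922 and 0.203). Against normal r4 Hoxb1a-deficient r4 was higher by 1.38 ± 0.21 and 1.15 ± 0.23 (adjusted p = 0.151 and 0.368).

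Below the 1.5-fold threshold, the next named genes were taken by size of mean change among those with 1.2-fold or more in every pair, which 78 probes reached as higher (0.481%) and 198 as lower (1.22%). On the higher side stood uts1, a peptide of the corticotropin-releasing hormone family. It went from 4.85, 2.94 and 2.98 to 11.2, 7.46 and 4.24, with the groups overlapping (1.02 ± 0.20, limma adjusted p = 0.368). The nucleic acid binding protein gene tsn went from 13.8, 13.3 and 14.7 to 17.8, 21.7 and 34.0. The mitochondrial folate enzyme gene mthfd1l went from 40.3, 17.2 and 17.5 to 48.6, 34.0 and 30.4. The groups of tsn did not overlap, and mean changes of tsn and mthfd1l were 0.76 ± 0.28 and 0.68 ± 0.22 (adjusted p = 0.817 and 0.771).

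The cochaperone gene dnajb1b went from 27.2, 19.3 and 21.6 to 41.5, 36.8 and 30.3 on 1 probe (0.68 ± 0.18, limma adjusted p = 0.634). A brighter probe of the same gene was at the highest value of the scan on both arrays of pair 3. In pair 2 that probe read 130 and 131, below the highest values of 186 and 177. It changed there by 0.01, against 0.93 on the first probe. In pair 1 it changed by 0.23, from 118 to 138, near the highest values of 128 and 147. The zinc finger gene prdm14 (mean 0.67), the complement inhibitor gene cd59a (0.56) and rspo1, which enhances Wnt signalling (0.50), were near the array median on most arrays. The remaining genes of this group were far1, a fatty acyl reductase, calcoco1a and lrrc17, with means of 0.49 to 0.52.

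On the lower side pcbp4, an RNA-binding protein gene, went from 14.1, 10.99 and 11.6 to 2.98, 8.26 and 9.08. Its mean of -1.003 rested on pair 1, at -2.24 against -0.41 and -0.36. The growth factor gene vegfab went from 3.39, 2.32 and 4.24 to 2.00, 1.77 and 1.89, with no overlap (-0.77 ± 0.19, limma adjusted p = 0.602). It was higher in r2, at 4.56, 10.3 and 9.18, and lower in Hoxb1a-deficient r4 than in r2 by a change of -1.92 ± 0.20 (adjusted p = 0.00154).

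A pair of genes of the cytoskeleton was in this group, rac3b, a small GTPase, and camsap1a, a protein of microtubule minus ends. Changes of rac3b were -0.30, -0.54 and -1.35, and those of camsap1a -0.58, -1.24 and -0.32, with overlap in both. A second camsap1a probe gave -0.23, -0.29 and -0.22, the same sign at a smaller size. The autophagy regulator gene tbc1d14, at -1.36, -0.29 and -0.68, lay around the median. The uncharacterised gene si:ch211-269c21.2 went from 3.86, 2.35 and 3.04 to 1.66, 1.74 and 1.87 (-0.79 ± 0.16, adjusted p = 0.422).

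The 3 pairs differed in which probes changed, and in which direction most of them did. In pair 1, 340 probes were past 1.5-fold as higher (2.1%) and 720 as lower (4.44%). In pair 2 the balance was the other way, with 558 higher (3.44%) and 112 lower (0.69%), and in pair 3 there were 596 higher (3.67%) and 1187 lower (7.31%). Across the 16227 probes the changes of pairs 1 and 2 correlated with r = -0.053, those of pairs 1 and 3 with r = 0.176 and those of pairs 2 and 3 with r = -0.029. On the 8169 brighter probes the values were 0.101, 0.122 and 0.031. These are descriptions across probes, which share the arrays and are not independent. Over all 3 pairs 1712 probes were higher in each (10.6%) and 2021 lower in each (12.5%).

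The lower probes past 1.5-fold that pairs 1 and 3 shared numbered 149, which is 20.7% of the lower probes of pair 1 and 12.6% of those of pair 3. Pairs 2 and 3 shared 45, or 40.2% of the lower probes of pair 2 and 3.79% of those of pair 3. Opposite changes were also frequent, since 102 of the 558 higher probes of pair 2 were past 1.5-fold as lower in pair 3, and 55 of the 720 lower probes of pair 1 were past it as higher in pair 2.

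**Figure D3:**
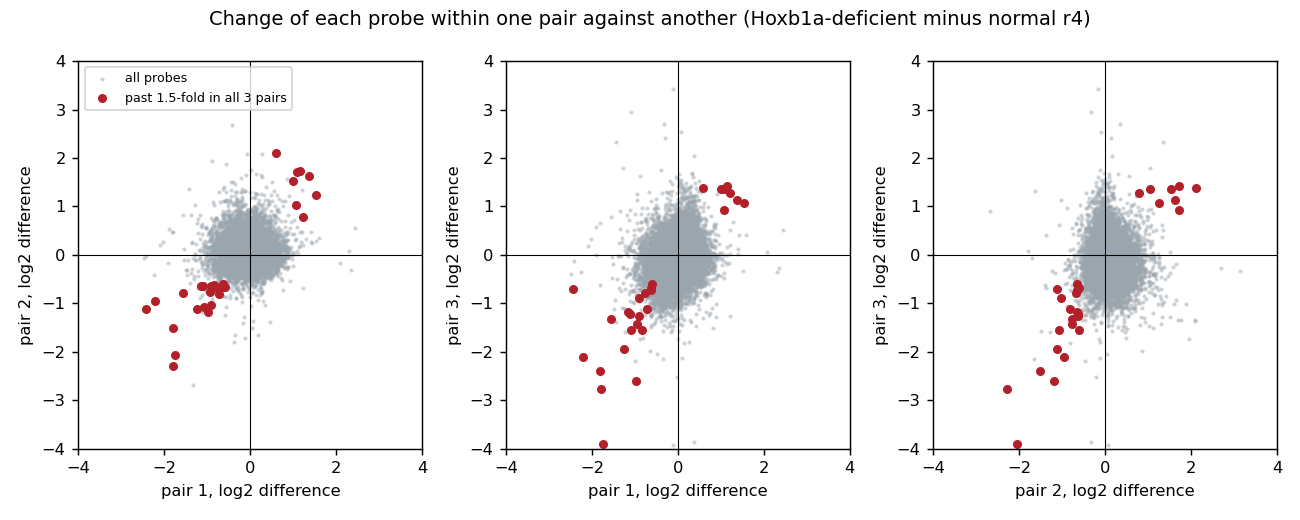
Each panel sets the log2 difference of every probe (Hoxb1a-deficient minus normal r4) in 1 pair against that in another; grey points are the 16227 probes, of which 3 lie outside the axes, and red points the 28 past 1.5-fold the same way in all 3 pairs. The grey cloud has no common slope (r = -0.053, 0.176 and -0.029).

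Lists of tissues beside the neural tube changed direction between pairs. Of 23 measured otic vesicle and placode genes, 0 were past 1.5-fold as higher and 5 as lower in pair 1, 6 as higher and 0 as lower in pair 2, and 0 as higher and 10 as lower in pair 3. The claudin gene cldn7b, of epithelial junctions, had changes of -0.64, 1.36 and -0.96, the adhesion gene epcam -0.64, 1.12 and -0.38, and the placode transcription factor gene dlx4b -0.78, 0.46 and -0.82. The summed level of the list was 303, 93.6 and 155 in normal r4, 218, 148 and 103 in Hoxb1a-deficient r4, and 25.4 to 27.4 in r2. Every r4 array was above every r2 array, and the arrays of both r4 groups differed widely among themselves. The otolith gene otop1 was lower in every pair (-0.58, -0.08 and -0.60, limma adjusted p = 0.771).

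The skin and periderm genes also differed between pairs. Of 21 measured members, 6 were past 1.5-fold as higher in pair 2 and 7 as lower in pair 3, and the epidermal transcription factor gene tp63 had changes of 0.89, 0.82 and -1.29. The list's median was 0.10, 0.20 and -0.30. Of 19 immediate early genes, which respond within minutes to handling and stress, 8 were past 1.5-fold as higher in pair 2 and 0 as lower, against 4 lower in pair 1 and 3 lower in pair 3. The nuclear receptor gene nr4a1 had changes of -0.35, 1.2995 and -0.45, and the cytokine feedback inhibitor gene socs3a -0.12, 1.31 and -0.27. Whether these shifts had a part in the changes of single genes was not tested. Whether the lists moved beyond the shift of bright values within each pair was not tested either.

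**Figure D4:**
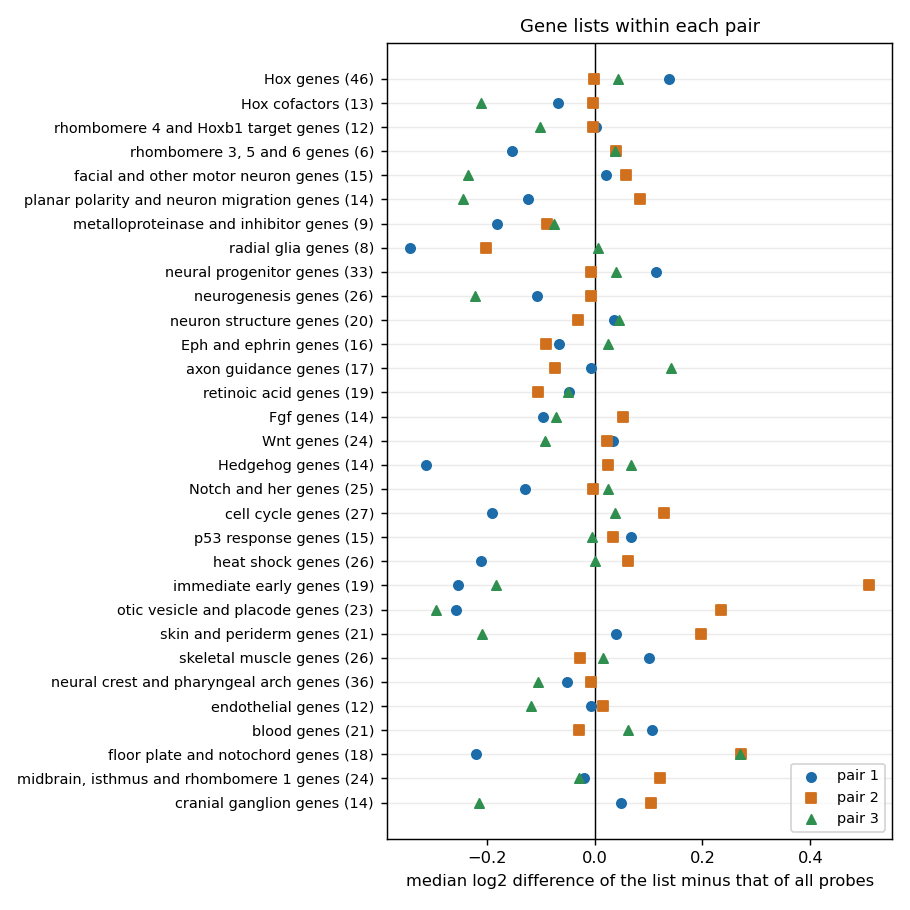
Median log2 difference of each gene list with at least 5 measured members (number in brackets) minus the median of all probes, in pairs 1, 2 and 3. The otic, skin and immediate early lists lie to the right in pair 2 and to the left in pair 3, with 0.51, 0.24 and 0.20 as unsubtracted medians of the immediate early, otic and skin lists in pair 2.

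Morpholinos can raise transcripts of the p53 pathway. Of 15 measured p53 response genes 0 passed the test, 3 were higher and 2 lower in all pairs, and the medians were 0.13, 0.04 and -0.10, close to those of all probes. The p53 target mdm2, which encodes the ligase that degrades p53, went from 1.40, 1.13 and 1.03 to 2.14, 1.503 and 1.28. Each deficient array was above its partner while the groups overlapped, with changes of 0.61, 0.41 and 0.31 (mean 0.44 ± 0.12, limma adjusted p = 0.722). The caspase gene casp8 had changes of 0.40, 0.24 and 0.31 on a dim probe, at 0.818 or lower. The p53 target sesn1 went the other way in each pair, at -0.25, -0.14 and -0.19.

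Across the 33 gene lists examined, 0 members passed the test in any list. The lists of Fgf, Wnt, Hedgehog, Notch, retinoic acid, axon guidance, Eph and ephrin, and cell cycle genes had 0 members past 1.5-fold in all pairs, and none past 1.2-fold in all pairs. Of 36 measured neural crest and pharyngeal arch genes 5 were higher and 8 lower in all pairs, and the median of their mean changes was 0.02. Their largest mean change with 1 sign in all pairs was that of foxd3, a transcription factor of early crest cells. It measured 2.400, 2.44 and 2.42 in normal r4 and 1.66, 1.98 and 1.104 in Hoxb1a-deficient r4. Its 3 normal values were nearly equal and the groups did not overlap (mean change -0.65 ± 0.16, limma adjusted p = 0.603). Of 12 measured endothelial genes 2 were higher and 2 lower in all pairs. The endocytic adaptor gene dab2, listed with them, went from 8.05, 3.36 and 5.44 to 3.69, 2.92 and 1.86 (-0.96 ± 0.23, adjusted p = 0.602). It passed in the setting without replicate 2 and in none of the other 20.

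Some of the largest differences came from 1 array. The protease gene ctslb, of hatching gland cells, measured 73.8 on the deficient array of pair 1 and between 0.412 and 1.04 on the other 8 arrays, a change of 7.48 in that pair against 0.02 and -0.18 in the others. The gene lypla2 measured 8.67 on the normal array of pair 3 and 67.5 or more on the other 8 arrays, which gave a change of 3.43. The gene id1, an inhibitor of differentiation induced by BMP signals, measured 3.23 on the deficient array of pair 3 against 18.5 on its partner (-2.52), and changed by -0.01 and -0.22 in the other pairs. Probes past 4-fold in 1 pair and under 1.2-fold in both others numbered 4 for pair 1, 0 for pair 2 and 5 for pair 3. These genes and probes were chosen after their values were seen.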

How the data were processed

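Per the labels' protocols, PicoPure RNA was amplified (RiboAmp HS) and biotin-labelled. The authors deposited 1 table of linear values, read here as the ratio of each spot's intensity to a factor close to its array's median. The sources used here do not give how the arrays were scanned and normalized. Of 16399 rows, 172 actb2 control spots were left out. Probes were named through the platform annotation and a later gene table (6010 rows matched), used for names only; 10246 probes have no symbol here and 74 several. For lists, the brightest of several probes stood for a gene (496 genes).

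Log2 values of all 9 arrays were fitted with limma 3.58.1 (R 4.3.3, two-sided, no pseudocount) with group and experiment as fixed terms and 4 residual degrees of freedom; a setting that leaves 1 array of a pair out assumes that its partner varies like the others. The pairing comes from the design text. Deviations from group means correlated with 0.892, 0.730 and 0.683 for same-numbered arrays and with -0.781 to 0.504 for others. No sign-flip test was run, since 3 pairs cannot go below a two-sided p of 0.25. The fit was tested on simulated data.

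Named were hoxb1a and prickle1b, probes past the test or past 1.5-fold in all pairs, the 12 largest named increases and decreases of 1.2-fold or more in every pair (with a mean above the median), the leading member of each list and defining genes of r4, its neighbours and motor neurons. Members and lists were chosen with earlier results of these data known. Other list members were named for their role.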

Additional observations from a re-analysis of the deposited data

How the results depend on the processing

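The calls depended on how the experiments were treated. In place of 0 higher and 2 lower probes there were 0 and 0 without the replicate block, 5 and 4 (9 in all) with the replicate block as a random effect, 7 and 7 (14) with the replicate block on the 6 r4 arrays, and 0 and 0 with the replicate block and a pseudocount of 1 or 16. With the replicate block, quantile normalization gave 2 and 3 (5 in all, 4 of them given in the text by symbol or probe ID). The 8232 brighter probes gave 2 and 5 (7), and a trended, robust eBayes 5 and 6 (11, 10 of them given by symbol or ID). Leaving out an experiment or an array gave 0 to 6 higher probes, 0 to 13 lower and 0 to 18 in all. Of these, 0 to 13 were among the probes followed here by symbol or ID, most of which have no gene symbol. The 18 came without replicate 2 (5 higher and 13 lower), and 0 came without replicate 1 or either of its arrays, which is the same fit. Without normal r2 replicate 2 there were 6 and 7, without replicate 3, 4 and 5, without Hoxb1a-deficient r4 replicate 2, 1 and 7, and without normal r4 replicate 3, 0 and 1. The cause of these differences was not tested.

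Probes past the fold threshold in every pair numbered 78 higher and 198 lower at 1.2-fold, 4 and 5 at 2-fold, 1 and 3 with a pseudocount of 16, 13 lower with a pseudocount of 1, and 17 higher after quantile normalization. With only 2 pairs required they ranged from 23 to 43 higher and from 38 to 149 lower. Relative to all probes 6 lists had medians of 1 sign in all pairs, 12 after quantile normalization and 11 to 18 with 1 pair left out. The main fit called only 2 of the probes followed by symbol or ID, so keeping a side mostly means not passing again. Of 1715 values of followed probes under 21 other settings, 1623 kept their sign and side of the threshold. Another 68 newly passed it, 14, all of the 2 called probes, no longer did, and 10 changed sign. The last were hoxa1a (-0.15 to 0.044), hoxb3a (-1.03 to 0.086), isl1a (-0.014 to 0.50) and gata2a (-0.030 to 0.16), over the settings with 1 array or pair left out. Signal near background limits probes at or below the array median, and 10 probes in normal r4 and 6 in Hoxb1a-deficient r4 were at the highest value on every array.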

Other observations

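Some lists were fixed for tissues that the slices could hold in small amounts. Of 26 measured skeletal muscle genes 4 were higher and 3 lower in all pairs and 0 passed limma's test. The cardiac actin gene actc1a, also active in early skeletal muscle, measured 1.74, 1.03 and 5.55 in normal r4 and 3.86, 1.42 and 5.55 in Hoxb1a-deficient r4. Of 21 blood genes 3 were higher and 0 lower in all pairs, 5 lay above the array median on 3 or more r4 arrays, and 0 were past 1.5-fold in any pair. Of 18 floor plate and notochord genes 4 were past 1.5-fold as lower in pair 1, while 2 were past it as higher in pair 2, and 2 as higher and 1 as lower in pair 3.

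Of 26 heat shock genes 1 was higher and 6 were lower in all pairs, beside 9.93% and 13.8% of all named genes. The chaperone gene dnajb11, of the endoplasmic reticulum, measured 44.6, 34.7 and 23.3 in normal r4 and 30.4, 25.4 and 19.2 in Hoxb1a-deficient r4 (changes of -0.55, -0.45 and -0.28, limma adjusted p = 0.771). Among immediate early genes the phosphatase gene dusp2 was lower in every pair, at -0.39, -0.38 and -0.49, and its groups did not overlap (adjusted p = 0.890). Among retinoic acid genes the nuclear receptor gene nr2f6b had changes of -0.34, -0.20 and -1.09. Of the 19 measured, 0 were higher and 6 lower in all pairs, beside the same shares of all named genes.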
